A study of Mus musculus with 4 samples.

Results

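Cell adhesion genes were examined in cultured mouse leukaemia cells with and without Tet2: the integrin chains, the adaptors that couple them to actin, and the surface molecules that attach blood cells to marrow niches. The set was defined by gene symbol: the 18 rows named as integrin alpha chains (Itga), the 8 rows Itgb1 to Itgb8, and 16 further genes chosen by name (Tln1, Tln2, Fermt3, Vcl, Ilk, Parvg, Selplg, Cd44, Icam1, Vcam1, Pecam1, Jam3, Esam, F11r, S1pr1 and Ackr3). It was chosen with earlier results of these data known, so it cannot be taken as independent of the values. All 42 were found among the 24497 gene rows of the deposited table. RNA had been sequenced from 4 libraries, 2 labelled WT and 2 labelled Tet2 KO. Both groups were leukaemic cells carrying NRAS and AE9a, a truncated form of the AML1-ETO fusion protein. The starting haematopoietic stem cells were taken from marrow of wild-type mice or of Tet2-/- mice, which lack exon 3 of the gene. Tet2 is a dioxygenase that oxidises 5-methylcytosine in DNA. All cells grew in RPMI medium with murine SCF at 50 ng/ml and with IL-3 and IL-6, each at 10 ng/ml. Puromycin (2 µg/ml) and G418 (1 mg/ml) were present in all cultures. Whether replicate libraries stem from different cultures, animals or transformed clones is not stated in the labels. The p-values therefore measure library-to-library spread alone, and that spread may be technical.

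Integrins are receptors made of 1 alpha and 1 beta chain. The beta 2 chain (Itgb2, CD18) pairs with leukocyte alpha chains to give LFA-1 (with Itgal), Mac-1 (with Itgam) and CD11c/CD18 (with Itgax). The beta 1 chain pairs with many alpha chains and binds fibronectin, laminin, collagen and VCAM-1, while beta 7 pairs with Itga4 or Itgae, and beta 3 with Itga2b on platelets or with Itgav. Inside the cell, talin and kindlin bind the beta tail and switch the receptor to its ligand-binding state, and vinculin, ILK and the parvins link it to actin. Selectin ligands, CD44 and sphingosine 1-phosphate receptors act with integrins when blood stem cells and leukaemia cells settle in the marrow or leave it.

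Values are TPM, transcripts scaled to a fixed total and corrected for transcript length, so levels of different genes can be compared. TPM keep no sequencing depth, and the precision given by the reads is unknown. Differences were tested with limma on log2(TPM + 1), two-sided, with Benjamini-Hochberg adjustment over the 11452 genes that reached 1 TPM in 2 or more libraries, and a gene was called higher or lower at an adjusted p under 0.05. Means are given ± SD over n = 2 libraries. Over all genes tested the median log2 fold change, Tet2 KO minus WT, was 0.23 on the deposited scale, so each call was also made after median-ratio scaling, which brings that median near 0. The ERCC spike-in RNAs took 4.38 and 4.43% of all TPM in WT against 5.48 and 5.33% in Tet2 KO. Among 7943 genes averaging at least 10 TPM, libraries of the same group differed by a median absolute log2 value of 0.0488 (WT) and 0.0694 (Tet2 KO), against 0.32 to 0.344 between groups. Tet2 itself had 16.62 and 16.98 TPM in WT against 16.98 and 16.95 TPM in Tet2 KO (limma adjusted p = 0.868). It was called lower after median-ratio scaling (-0.22, limma adjusted p = 0.00935), quantile normalization (-0.25, limma adjusted p = 0.00491) and spike-in scaling (-0.27, limma adjusted p = 0.00278). This gene-level value does not separate exon 3 from the other exons and so does not check the deletion. The labelled cell type was checked on 9 leukaemic myeloid genes, all of which were above the 1 TPM filter. The leukocyte gene Ptprc was at 176.45 to 229.57 TPM and the myeloperoxidase gene Mpo at 91.51 to 160.65 TPM. Genes of this list were not level between the groups. Kit went from 11.63 and 11.99 TPM in WT to 201.19 and 209.41 TPM in Tet2 KO. Csf1r went from 99.48 and 100.70 to 39.39 and 43.41 TPM. Their part in the integrin result was not tested. Summed markers of T and NK cells, B cells and stroma reached at most 3.91, 2.79 and 18.4 TPM, carried by Lck, Cd22 and Pdgfrb. Of 9 erythroid markers only the globin gene Hbb-bt was tested, at 78.68 and 70.65 TPM in WT and 298.3 and 300.91 TPM in Tet2 KO, and each of the others stayed at or under 1.03 TPM.

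Of the 42 genes, 28 reached the filter and were tested. The other 14 (Itga2, Itga3, Itga7, Itga8, Itga10, Itga11, Itgad, Itgb4, Itgb6, Itgb8, Tln2, Vcam1, Esam and Ackr3) stayed at or under 0.79 TPM in every library, and Itga11 and Itgb6 were listed at 0 throughout. Itga9 and Itgae passed only through the Tet2 KO libraries and Jam3 only through the WT libraries, so the counts below include 3 genes whose calls the filter favoured. On the deposited scale 14 of the 28 were higher and 10 lower in Tet2 KO, against 54.4% higher and 19.5% lower among all genes tested, 73.9% together. After median-ratio scaling 8 were higher and 14 lower, against 33.3% and 34.4% of all genes (67.7% together). After scaling to the spike-ins 8 were higher and 15 lower, against 29.6% and 37.8% (67.4% together). Without those 3 genes, left out after the data were seen, 12 of 25 were higher and 9 lower as deposited, and 6 and 13 after median-ratio scaling. The median log2 fold change of the 28 was 0.12 on the deposited scale and -0.13 after scaling. Changes of at least 2-fold on the log2(TPM + 1) scale were called for 4 higher genes (S1pr1, Itga2b, Itgb3 and Itga4) and 3 lower genes (Itgax, Cd44 and Itgb2), where 6.1% and 2.8% of all genes met these rules. After median-ratio scaling these numbers were 3 and 5, against 3.85% and 4.4% of all genes, and after spike-in scaling also 3 and 5, against 3.54% and 4.74%. The plot of TPM by library shows every tested gene.

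**Figure D1:**
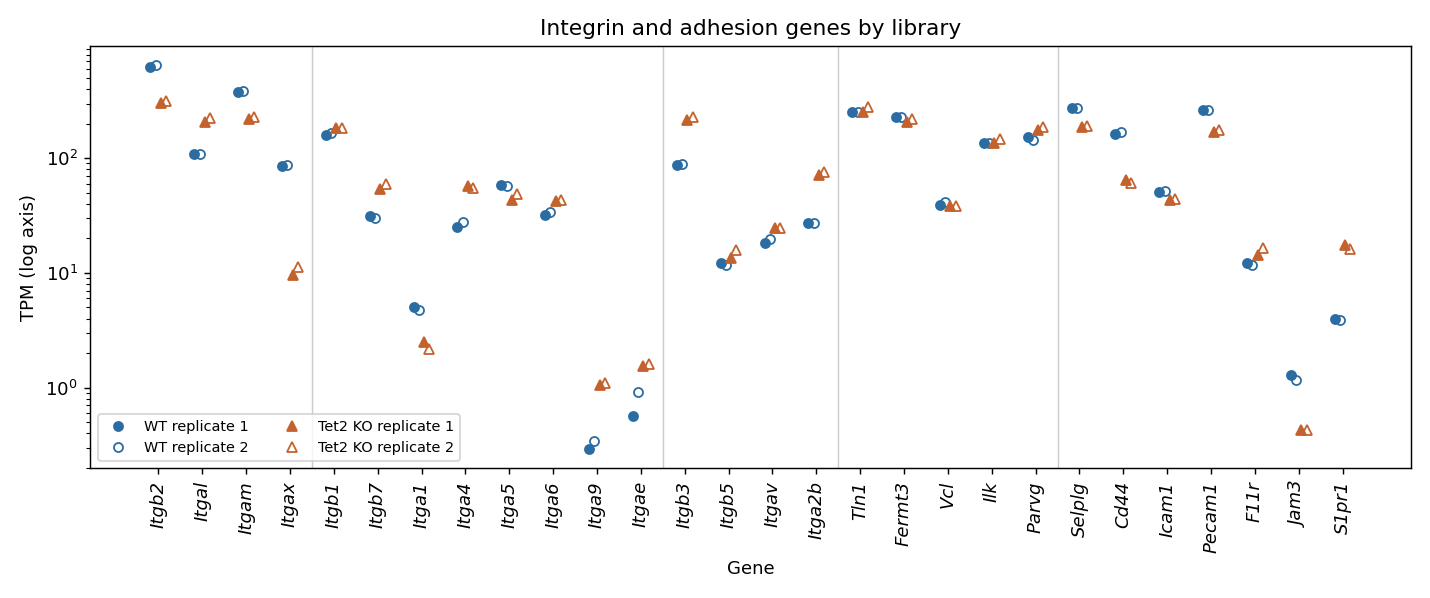
TPM of the 28 tested genes (log axis) in WT replicates 1 and 2 (circles) and Tet2 KO replicates 1 and 2 (triangles), 1 point per library; vertical lines separate the beta 2 family, the beta 1 and beta 7 families, the beta 3, beta 5 and alpha v chains with Itga2b, the adaptors, and the other surface molecules. The Tet2 KO points lie far below the WT points for Itgax (9.61 and 11.20 against 86.31 and 86.44 TPM) and above them for S1pr1, Itga2b and Itgb3.

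Promoter windows of 6 genes are shown first, because these genes differed strongly between the groups, 3 of them falling and 3 rising. Among the genes with a window in the RefSeq table they have the largest differences, apart from Itga1, which lay near 5 TPM or below. This choice was made after the values were seen. Each window runs from 250 bases before to 50 after the annotated start, is written 5′ to 3′ on the strand of the gene, and is taken from RefSeq on build GRCm38.p6. Capitals mark matches on either strand to core motifs of 3 families of blood transcription factors. For RUNX factors, whose DNA-binding domain AML1-ETO retains, the letters searched were TGTGGT. For the myeloid factor PU.1 they were GAGGAA. For GATA factors they were AGATAA, and none of the motifs is contained in another. The windows are chr7:128062390-128062689 (plus strand, Itgam), chr7:128129300-128129599 (plus, Itgax), chr2:102901616-102901915 (minus, Cd44), chr11:102469834-102470133 (minus, Itga2b), chr2:79255176-79255475 (plus, Itga4) and chr15:102231886-102232185 (minus, Itgb7).
Itgam: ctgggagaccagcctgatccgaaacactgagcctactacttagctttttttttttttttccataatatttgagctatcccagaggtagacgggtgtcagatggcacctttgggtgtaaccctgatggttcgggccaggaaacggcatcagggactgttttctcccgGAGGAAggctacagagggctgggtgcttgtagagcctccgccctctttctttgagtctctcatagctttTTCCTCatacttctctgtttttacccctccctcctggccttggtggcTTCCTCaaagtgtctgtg
Itgax: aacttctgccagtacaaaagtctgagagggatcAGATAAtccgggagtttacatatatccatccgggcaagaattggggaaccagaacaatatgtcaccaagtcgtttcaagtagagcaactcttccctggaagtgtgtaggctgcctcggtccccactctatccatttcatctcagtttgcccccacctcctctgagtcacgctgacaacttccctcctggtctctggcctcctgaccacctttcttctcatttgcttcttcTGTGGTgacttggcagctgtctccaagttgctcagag
Cd44: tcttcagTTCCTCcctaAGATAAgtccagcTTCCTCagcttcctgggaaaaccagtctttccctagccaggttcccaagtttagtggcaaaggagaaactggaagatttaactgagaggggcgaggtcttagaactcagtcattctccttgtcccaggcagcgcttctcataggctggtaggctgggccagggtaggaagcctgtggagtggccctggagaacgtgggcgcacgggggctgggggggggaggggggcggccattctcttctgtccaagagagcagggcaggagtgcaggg
Itga2b: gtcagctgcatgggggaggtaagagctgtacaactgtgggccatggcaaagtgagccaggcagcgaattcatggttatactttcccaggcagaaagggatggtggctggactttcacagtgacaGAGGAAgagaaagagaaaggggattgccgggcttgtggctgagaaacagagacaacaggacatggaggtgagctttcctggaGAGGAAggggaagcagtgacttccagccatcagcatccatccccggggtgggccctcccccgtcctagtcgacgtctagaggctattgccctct
Itga4: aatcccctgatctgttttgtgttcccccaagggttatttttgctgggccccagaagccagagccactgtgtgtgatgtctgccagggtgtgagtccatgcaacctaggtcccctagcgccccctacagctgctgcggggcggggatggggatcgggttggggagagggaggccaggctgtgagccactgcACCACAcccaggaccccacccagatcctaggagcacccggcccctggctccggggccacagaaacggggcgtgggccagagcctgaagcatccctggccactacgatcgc
Itgb7: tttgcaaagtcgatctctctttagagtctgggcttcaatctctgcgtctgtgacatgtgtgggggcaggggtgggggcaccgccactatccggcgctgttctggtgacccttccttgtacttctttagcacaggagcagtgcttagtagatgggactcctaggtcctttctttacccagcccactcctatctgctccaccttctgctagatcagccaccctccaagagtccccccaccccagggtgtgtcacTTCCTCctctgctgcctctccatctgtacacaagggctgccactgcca

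The genes that fell carried these letters in different combinations. The Itgam window held 3 GAGGAA matches, the Cd44 window 2 together with 1 AGATAA match, and the Itgax window 1 TGTGGT and 1 AGATAA match. Among the genes that rose, Itga2b held 2 GAGGAA matches, Itgb7 held 1, and Itga4 held 1 TGTGGT match. Of all 32851 promoter windows in the table, 16.8% held TGTGGT, 28.3% GAGGAA and 11.2% AGATAA. Windows were found for 27 of the 42 genes, of which 7, 13 and 2 held the respective motif in at least 1 window. These 27 genes had 31 windows, so counts by gene are not directly comparable with the shares of windows. A match is a run of letters and not a measured binding site.

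In the beta 2 family the alpha chain of LFA-1 rose, while the alpha chains of Mac-1 and CD11c/CD18 and the shared beta chain fell. Itgax (chromosome 7, 128129547 to 128150657, plus strand, mm10), the CD11c gene, had 86.31 and 86.44 TPM in WT against 9.61 and 11.20 TPM in Tet2 KO. Both WT libraries thus lay far above both Tet2 KO libraries, an 8.3-fold difference of means (log2 fold change -2.94, SE 0.0689, limma adjusted p = 7.11e-15). Itgam (chromosome 7, 128062640 to 128118491, plus strand), the CD11b gene of granulocytes and monocytes, went from 380.06 and 385.46 TPM to 220.71 and 227.39 TPM. Its groups were also apart, by 1.71-fold (log2 fold change -0.77, SE 0.0391, limma adjusted p = 4.06e-11). Itgb2 (chromosome 10, 77530252 to 77565708, plus strand), the shared beta chain and the most abundant gene of the set in both groups, fell from 627.58 and 648.25 TPM to 301.52 and 316.65 TPM, or 2.06-fold (log2 fold change -1.04, SE 0.0389, limma adjusted p = 8.47e-13). Against these, Itgal (chromosome 7, 127296260 to 127335138, plus strand), the LFA-1 alpha chain that binds ICAMs, rose from 109.04 and 109.95 TPM to 206.69 and 223.46 TPM, 1.96-fold (log2 fold change 0.97, SE 0.0474, limma adjusted p = 2.65e-11). Itgad, which follows Itgax on the chromosome after 3718 bases, stayed at or under 0.03 TPM.

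Itgam and Itgax, which fell, are neighbours: 11055 bases and 1 predicted gene (Gm45700) lie between them, whereas Itgal, which rose, lies 727501 bases away on the same chromosome. Some sequence in this cluster is shared between annotated genes. Of the 50-base words of the longest Itgax transcript, 9.61% also occur in Itgad. How reads of these genes were divided is not given in the sources used here. Of the words of Itgam, 72.4% occur in the predicted overlapping locus Gm49368 of the GENCODE release used here. Gm49368 has no row in the deposited table, so no division of reads with it is seen in these values.

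Shares within a library do not depend on how that library is scaled, and they showed the same turn. Among the summed TPM of the alpha partners of Itgb2, Itgam made up 66.05 and 66.24% in WT and 50.5 and 49.21% in Tet2 KO. Itgal made up 18.95 and 18.9% in WT and 47.3 and 48.36% in Tet2 KO. Itgax made up 14.9 ± 0.102% in WT and 2.31 ± 0.159% in Tet2 KO. For all 3 chains the groups were apart by far more than the replicates differed, and the ratio of Itgam to Itgal went from 3.5 ± 0.0143 to 1.04 ± 0.0355. Summed alpha partners stood at 0.907 ± 0.0136 of the Itgb2 level in WT and at 1.45 ± 0.00701 of it in Tet2 KO. No test was run on these shares.

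Markers of granulocytes moved with Itgam and Itgb2. Of 10 neutrophil markers 9 were tested and all 9 were lower, with a summed level of 30337 to 30452 TPM in WT and 13201 to 13645 TPM in Tet2 KO. Of 10 macrophage markers 5 were tested, 2 higher and 3 lower (1 and 4 after scaling), with sums of 766.52 to 767.54 and 658.65 to 680.58 TPM. Among 10 dendritic cell markers, which are relevant to Itgax, only H2-Aa and H2-Ab1 were tested and both were lower. H2-Aa entered the test only through the WT libraries (4.94 and 4.59 against 0.09 and 0.47 TPM), so the filter favoured its call. The summed list went from 9.43 and 9.45 to 2.21 and 2.38 TPM. The dendritic genes Flt3, Zbtb46, Xcr1, Siglech and Ccr7 were under 1 TPM in every library and Cd209a was listed at 0. The part of these differences in the integrin result was not tested. In bulk RNA, fewer cells of a type and less RNA per cell cannot be told apart.

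**Figure D2:**
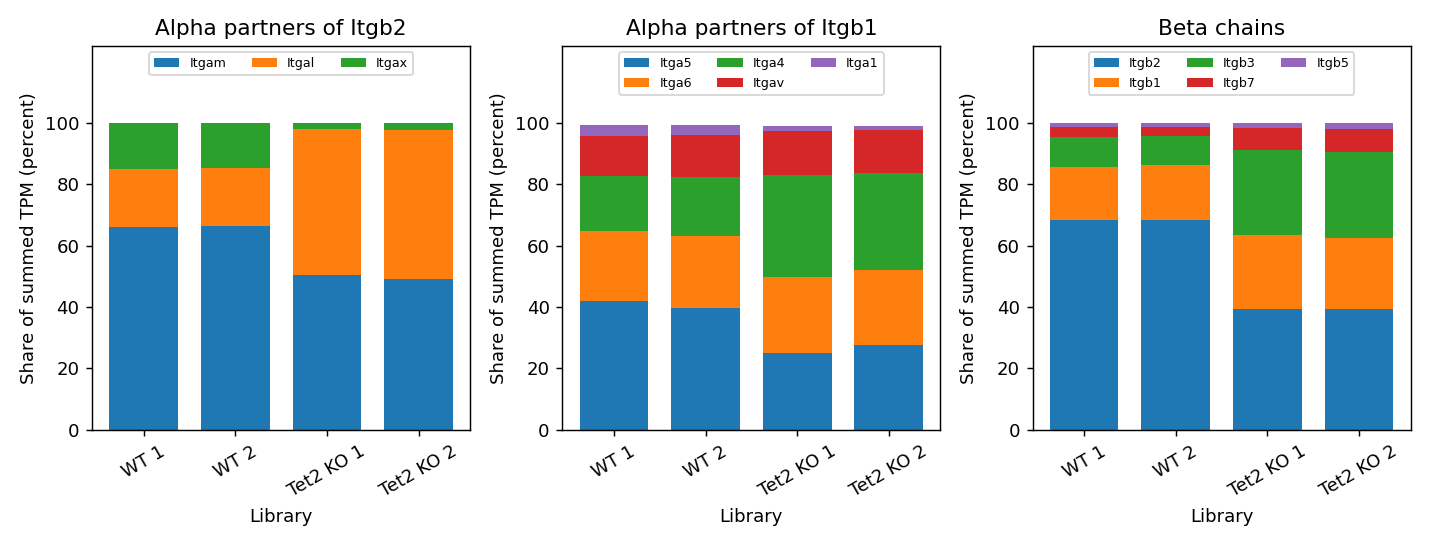
Share of each chain in the summed TPM of its family (percent) in each of the 4 libraries, for the alpha partners of Itgb2, the alpha partners of Itgb1 and the beta chains; chains under 1% of their family are left out, so bars may end just under 100. Itgb2 takes 68.4% of beta chain TPM in WT and 39.4% in Tet2 KO, while Itgb3 goes from 9.51 to 28.1%.

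The alpha 4 and beta 7 chains rose together. Itga4 (chromosome 2, 79255426 to 79333123, plus strand), the VLA-4 alpha chain that holds blood progenitors to VCAM-1 and fibronectin, was at 24.99 and 27.93 TPM in WT and 57.76 and 55.54 TPM in Tet2 KO. The groups did not overlap, and the means differed 2.14-fold (log2 fold change 1.07, SE 0.0633, limma adjusted p = 2.68e-10). Itgb7 (chromosome 15, 102215995 to 102231944, minus strand), its partner in the gut-homing integrin that mast cell progenitors also carry, went from 31.21 and 30.14 to 53.80 and 59.92 TPM, 1.85-fold (log2 fold change 0.87, SE 0.0623, limma adjusted p = 2.95e-09). The ratio of Itga4 to Itgb7 was 0.864 ± 0.0891 in WT and 1.0 ± 0.104 in Tet2 KO. The groups nearly touched, with the highest WT library at 0.9267 and the lowest Tet2 KO library at 0.9269. Itgae, the other partner of beta 7, was low throughout, at 0.56 and 0.91 TPM in WT and 1.54 and 1.59 TPM in Tet2 KO, and it entered the test only through the Tet2 KO libraries; its call, lost under quantile normalization, is not read as support. Of 11 mast cell and basophil markers 9 were tested, 3 higher and 6 lower, against 54.4% and 19.5% of all genes. Cpa3, a mast cell carboxypeptidase gene, went from 1715.87 and 1749.99 to 5030.25 and 4846.78 TPM, while the basophil protease gene Mcpt8 went from 281.96 and 269.19 to 85.63 and 82.65 TPM. Other mast cell protease genes went both ways. Cma1 fell from 27.41 and 25.40 to 5.61 and 4.24 TPM and Mcpt4 from 4.58 and 4.34 to 1.15 and 1.69 TPM. Tpsb2 rose from 17.72 and 20.06 to 39.55 and 35.82 TPM. The summed list ranged from 2318 to 2332 TPM in WT and from 5195 to 5381 TPM in Tet2 KO. Cpa3 was its largest term in every library. The part of the list in the beta 7 result was not tested.

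Among the partners of beta 1 the alpha 4 chain rose and the alpha 5 chain fell. Itgb1 (chromosome 8, 128685654 to 128733200, plus strand) stood at 159.40 and 167.38 TPM in WT and 183.26 and 184.10 TPM in Tet2 KO. This small difference was called higher on the deposited scale (log2 fold change 0.17, SE 0.0439, limma adjusted p = 0.00258), was not called after median-ratio scaling (-0.076, limma adjusted p = 0.112) and turned to lower when scaled to the spike-ins (-0.13, limma adjusted p = 0.034). It was also lost without WT replicate 1 (0.13, limma adjusted p = 0.0905). Itga5, which with beta 1 forms the classical fibronectin receptor, fell from 58.77 and 57.20 to 43.09 and 48.78 TPM (log2 fold change -0.33, SE 0.0623, limma adjusted p = 1.69e-04). Itga1, a collagen receptor chain, fell from 5.08 and 4.77 to 2.49 and 2.19 TPM (limma adjusted p = 3.79e-06). Both genes had separate groups, and both kept their direction after scaling, at -0.57 and -1.02.

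The laminin receptor chain Itga6 was at 31.90 and 34.22 TPM in WT and 42.74 and 42.84 TPM in Tet2 KO, called higher as deposited (log2 fold change 0.36, limma adjusted p = 3.77e-05) and not after scaling (0.12, limma adjusted p = 0.0569). Itga9, a tenascin receptor chain, was at 0.29 and 0.34 TPM in WT and 1.05 and 1.10 TPM in Tet2 KO; it entered the test only through the Tet2 KO libraries, so its call is not read as support. Within the alpha partners of beta 1, the share of Itga4 was 18.6 ± 1.004% in WT and 32.5 ± 1.31% in Tet2 KO, and that of Itga5 was 40.8 ± 1.78% and 26.3 ± 1.98%. Itga6 kept 23.2 ± 0.582 and 24.5 ± 0.269%. The order of Itga4 and Itga5 thus turned around, their ratio going from 0.457 ± 0.0446 to 1.24 ± 0.143, with no overlap between groups. Since Itga4 also pairs with beta 7, these shares describe RNA and not receptors.

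Both chains of the platelet fibrinogen receptor rose. Itga2b (chromosome 11, 102453297 to 102470122, minus strand), also known as CD41 and present on megakaryocytes and early blood progenitors, was at 27.00 and 27.09 TPM in WT and 71.00 and 75.34 TPM in Tet2 KO. Itgb3 (chromosome 11, 104608000 to 104670476, plus strand), its beta chain, was at 87.94 and 89.37 TPM in WT and 213.55 and 227.10 TPM in Tet2 KO. In both genes the Tet2 KO libraries lay well above the WT libraries. The means rose 2.71-fold for Itga2b (log2 fold change 1.4, SE 0.0568, limma adjusted p = 2.51e-12) and 2.49-fold for Itgb3 (log2 fold change 1.3, SE 0.0467, limma adjusted p = 5.09e-13). Their ratio moved little, from 0.305 ± 0.00276 to 0.332 ± 5.14e-04. Itgav, which gives the vitronectin receptor with beta 3 or beta 5, was at 18.12 and 19.61 TPM in WT and 24.64 and 24.66 TPM in Tet2 KO, and was called higher as deposited (log2 fold change 0.37, limma adjusted p = 1.03e-04) but not after scaling (0.13, limma adjusted p = 0.0681).

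Itgb5 went from 12.20 and 11.61 to 13.58 and 15.87 TPM (log2 difference 0.28, limma adjusted p = 0.00639). That call was lost after scaling (0.053, limma adjusted p = 0.582), without WT replicate 2 (limma adjusted p = 0.0585) and without Tet2 KO replicate 2 (limma adjusted p = 0.0792). In Tet2 KO, Itgb3 had reached the level of Itgam, Itgal and the adaptor gene Fermt3, and the libraries of these 4 genes, from 206.69 to 227.39 TPM, overlapped. Megakaryocyte markers moved with Itga2b and Itgb3. Of 13 such genes 7 were tested, 6 higher and 1 lower, against 54.4% and 19.5% of all genes. Gp5, called higher, entered the test only through the Tet2 KO libraries, and Treml1, called lower, only through the WT libraries. The filter favoured both calls. Summed megakaryocyte markers were at 98.1 and 100.5 TPM in WT and 194.01 and 212.97 TPM in Tet2 KO. The largest terms in Tet2 KO were Pf4, Vwf and Nbeal2. The part of these genes in the result was not tested. The platelet glycoprotein gene Gp9 was at 0.25 TPM or less, and Gp6 was listed at 0 in every library.

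Of the tested adaptors of the set (Tln1, Fermt3, Vcl, Ilk and Parvg), only Parvg was called on the deposited scale. Further focal adhesion adaptors, most of them called, are given with the pathway lists below. Talin 1 (Tln1), which opens the integrin by binding the beta tail, was at 253.81 and 255.17 TPM in WT and 253.78 and 280.22 TPM in Tet2 KO. Kindlin 3 (Fermt3), the blood cell kindlin, was at 228.05 and 227.37 TPM in WT and 207.40 and 221.85 TPM in Tet2 KO. Vinculin (Vcl), which reinforces the link of talin to actin, was at 39.18 and 41.19 TPM and at 38.30 and 37.96 TPM. None of these 3 was called on the deposited scale: the 95% intervals of the log2 fold change ran from -0.03 to 0.17 for Tln1, from -0.18 to 0.0069 for Fermt3 and from -0.20 to 0.05 for Vcl (limma adjusted p = 0.205, 0.0868 and 0.257). After median-ratio scaling these 3 genes were lower, with log2 fold changes of -0.18, -0.33 and -0.31 (limma adjusted p = 0.00721, 1.04e-04 and 4.79e-04). Without Tet2 KO replicate 2, Fermt3 was called lower on the deposited scale too (-0.13, limma adjusted p = 0.0117). Tln1 was called higher without Tet2 KO replicate 1 (0.14, limma adjusted p = 0.00804) and stood at -0.0040 without Tet2 KO replicate 2.

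Ilk, the pseudokinase of the ILK-PINCH-parvin complex, was at 137.04 and 136.92 TPM in WT and 136.46 and 145.86 TPM in Tet2 KO, with overlapping groups (95% interval of the log2 fold change -0.06 to 0.14, limma adjusted p = 0.426). After median-ratio scaling it was called lower (-0.20, limma adjusted p = 0.00235). Its value is uncertain, because exons of Taf10, a gene at 117.86 to 142.22 TPM, cover 76.7% of its exon bases on the opposite strand. The library kit marks strand, but whether the quantification used it is not given in the sources used here. Exons of Ap3m1 likewise cover 25.5% of those of Vcl. Parvg, the parvin of blood cells, was at 153.64 and 144.53 TPM in WT and 175.17 and 187.60 TPM in Tet2 KO. It was called higher as deposited (log2 fold change 0.28, SE 0.0485, limma adjusted p = 6.91e-05) and not after scaling (0.036, limma adjusted p = 0.531). On the deposited scale Itgb2 was lower and Fermt3 was not called, while after median-ratio scaling both were lower. The ratio of Itgb2 to Fermt3 went from 2.8 ± 0.0701 to 1.44 ± 0.0187.

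**Figure D3:**
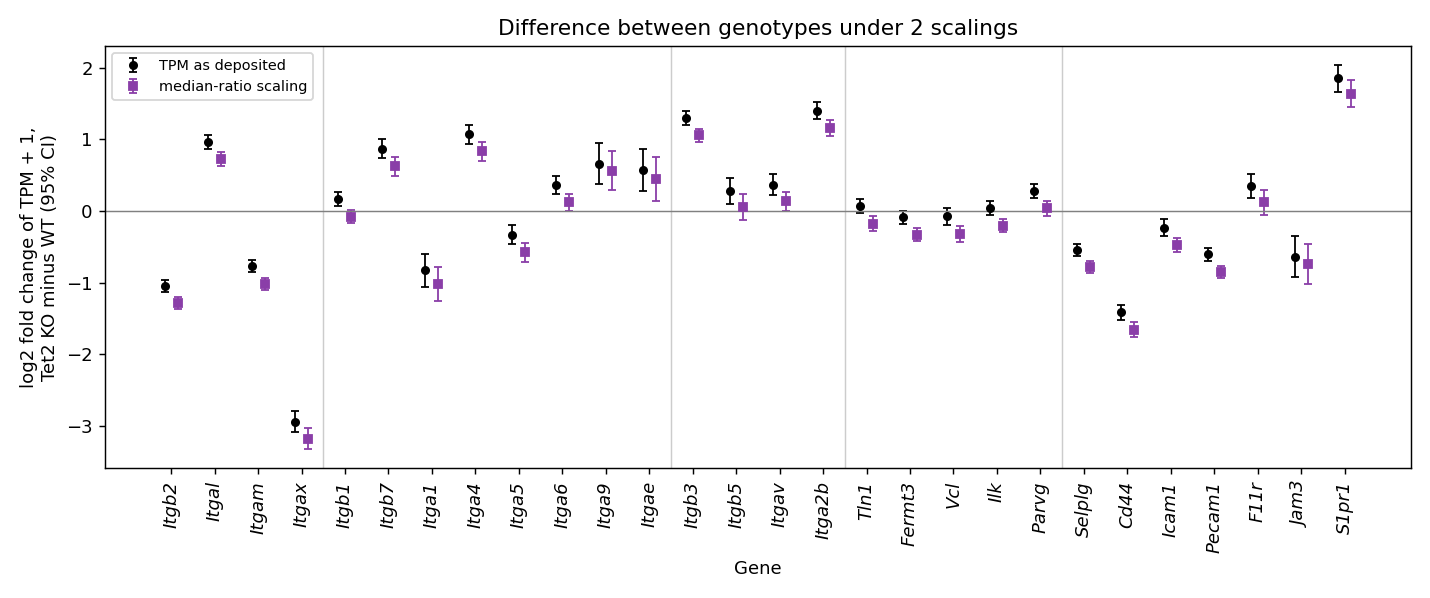
Log2 fold change of TPM + 1, Tet2 KO minus WT, of the 28 tested genes with 95% confidence intervals from limma, on the deposited scale (circles) and after median-ratio scaling (squares), in the same gene order and with the same family lines as the plot of TPM by library. The adaptors Tln1, Fermt3, Vcl and Ilk lie near 0 on the deposited scale and below 0 after scaling, while Itgax (-2.94) lies farthest below 0 and S1pr1 (1.85) farthest above 0 under both scalings.

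Cd44 and Selplg fell. Cd44 (chromosome 2, 102811141 to 102901665, minus strand), which binds hyaluronan and in some glycoforms E-selectin, went from 163.31 and 170.44 TPM in WT to 63.95 and 60.46 TPM in Tet2 KO. Every Tet2 KO value lay below every WT value, at a 2.68-fold difference of means (log2 fold change -1.41, SE 0.0499, limma adjusted p = 4.36e-13). Selplg (chromosome 5, 113818536 to 113832644, minus strand), which encodes the P-selectin ligand PSGL-1, fell from 274.58 and 274.19 to 186.40 and 190.55 TPM, 1.46-fold (log2 fold change -0.54, SE 0.0404, limma adjusted p = 4.82e-09). The ratio of Cd44 to Selplg went from 0.608 ± 0.019 to 0.33 ± 0.0182, with no overlap between groups.

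Among adhesion molecules of the immunoglobulin family, Pecam1 and Icam1 were lower. Pecam1 (chromosome 11, 106654217 to 106750628, minus strand), the CD31 gene of leukocytes, platelets and endothelium, fell from 263.78 and 261.42 to 169.01 and 176.05 TPM, 1.52-fold (log2 fold change -0.60, SE 0.0418, limma adjusted p = 1.94e-09). Icam1, the ligand of LFA-1 and Mac-1, fell from 51.17 and 52.31 to 43.65 and 44.31 TPM (log2 fold change -0.23, SE 0.0546, limma adjusted p = 0.00126). Jam3, a junctional molecule that binds Mac-1, was at 1.28 and 1.16 TPM in WT and 0.43 TPM in both Tet2 KO libraries, and it entered the test only through the WT libraries. Pecam1 and Icam1 had separate groups and stayed lower after scaling, at -0.85 and -0.47. F11r, the JAM-A gene that binds LFA-1, was at 12.14 and 11.67 TPM in WT and 14.46 and 16.54 TPM in Tet2 KO, called higher as deposited (log2 fold change 0.35, limma adjusted p = 9.39e-04) and not after scaling (0.12, limma adjusted p = 0.178). Vcam1, the VLA-4 ligand of marrow stroma and macrophages, was at 0.02 TPM or less and Esam, a junctional molecule of endothelium and blood stem cells, at 0.28 TPM or less.

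Most endothelial markers were too low to be set beside Pecam1, since 9 of 12 stayed under 1 TPM in every library. The other 3 (Tie1, Egfl7 and Eng) were tested and all 3 were higher, or 2 after scaling. Among all genes 54.4% were higher as deposited and 33.3% after scaling. The 12 genes summed to 21.43 and 22.17 TPM in WT and 42.42 and 46.05 TPM in Tet2 KO. Their relation to the Pecam1 result was not tested. The defining genes Cdh5 and Kdr were at or under 0.03 and 0.19 TPM, and Cldn5, Emcn, Ramp2 and Sox17 were listed at 0 in all libraries.

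S1pr1 showed the largest rise of the set. It encodes the receptor through which blood cells leave tissues along sphingosine 1-phosphate gradients. On chromosome 3 (115710433 to 115715072, minus strand), it went from 3.99 and 3.90 TPM in WT to 17.60 and 16.11 TPM in Tet2 KO. The means differed 4.27-fold with no overlap (log2 fold change 1.85, SE 0.0872, limma adjusted p = 1.6e-11), and the difference was 1.64 after scaling. Ackr3, the scavenging receptor for CXCL12, was at 0.12 TPM or less in every library.

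The neighbouring machinery was read from 6 lists of pathway genes that hold none of the 42. Together they had 104 tested genes of 145 listed, with 57 higher and 33 lower in Tet2 KO as deposited and 35 and 45 after scaling. The median log2 fold change was 0.17 and -0.08, against 0.23 and 0.0023 over all genes. Tns2, Kank2 and Dpp4 entered the test only through the Tet2 KO libraries and Edil3 only through the WT libraries. The counts of the lists therefore include these genes, whose calls the filter favoured. Tns1 reached the filter in WT replicate 1 (1.00 TPM) but not in WT replicate 2 (0.92 TPM). Counts as deposited are read beside the 54.4% and 19.5% of all genes above. Counts after median-ratio scaling, here and in each list below, are read beside 33.3% higher and 34.4% lower.

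In the list of integrin activation and signalling genes, 15 of 27 tested genes were higher and 8 lower, or 7 and 12 after scaling. Among the lower ones was the Src family kinase gene Fgr (38.93 and 37.51 to 17.55 and 18.98 TPM, limma adjusted p = 5.38e-10), which acts downstream of beta 2 integrins in myeloid cells. Fyb, an adaptor on the route to integrin activation, rose from 35.69 and 36.89 to 67.99 and 67.93 TPM (limma adjusted p = 4.38e-10). Sipa1l1, a Rap GTPase-activating protein gene, rose from 24.55 and 24.44 to 50.84 and 53.63 TPM (limma adjusted p = 1.11e-10).

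Of the 15 tested focal adhesion adaptors 10 were higher and 4 lower, or 5 and 5 after scaling. Tns1, which encodes the beta tail binding adaptor tensin 1, had the largest difference of this list, from 1.00 and 0.92 to 24.23 and 27.30 TPM (log2 difference 3.77, limma adjusted p = 9.42e-15). The actin crosslinker gene Actn1 fell from 97.69 and 99.28 to 43.19 and 47.64 TPM and the paxillin relative Lpxn from 26.09 and 25.23 to 14.21 and 13.35 TPM (limma adjusted p = 4.9e-11 and 1.12e-08). Lpp, a zyxin family gene, rose from 11.02 and 11.32 to 20.03 and 19.53 TPM.

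Among 16 tested genes of selectins and selectin ligand synthesis, 10 were higher and 5 lower, or 8 and 6 after scaling. The count of lower genes became 3 without WT replicate 2 and 3 without Tet2 KO replicate 1. Podxl, a sialomucin gene of blood progenitors, rose from 1.81 and 1.51 to 7.02 and 7.32 TPM, and Spn, the CD43 gene, from 59.30 and 58.63 to 90.72 and 92.37 TPM. Emb, which encodes the immunoglobulin family molecule embigin, fell from 510.88 and 524.63 to 330.76 and 310.82 TPM (limma adjusted p = 2.3e-10).

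In the sphingosine 1-phosphate and CXCL12 list 11 of 18 tested genes were higher and 2 lower, or 8 and 5 after scaling. Besides S1pr1, the receptor gene S1pr3 rose from 2.87 and 3.21 to 7.78 and 9.23 TPM (limma adjusted p = 2.62e-08). Spns2, the sphingosine 1-phosphate exporter gene, rose from 22.28 and 21.64 to 56.22 and 60.07 TPM (log2 difference 1.36, limma adjusted p = 6.52e-12). Rgs1, a brake on chemokine receptor signalling, rose from 354.70 and 385.95 to 710.97 and 626.42 TPM, and Gna13, a G protein subunit gene, from 48.65 and 50.48 to 80.43 and 83.86 TPM.

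Of 16 other adhesion molecules tested, 7 were higher and 7 lower, or 4 and 9 after scaling; with no filter on low values 11 were higher. Cd93, a lectin-like receptor of stem and myeloid cells, rose from 222.16 and 228.74 to 626.51 and 661.43 TPM. Cdh1, the E-cadherin gene, fell from 50.56 and 52.28 to 7.46 and 7.61 TPM (log2 difference -2.62, limma adjusted p = 6.85e-15), Pcdh7 from 23.04 and 23.33 to 10.82 and 11.55 TPM and L1cam from 9.12 and 9.42 to 4.46 and 4.89 TPM. Of 12 integrin ligand and matrix genes 4 were higher and 7 lower, or 3 and 8 after scaling. Mfge8, which encodes a bridge between apoptotic cells and alpha v integrins, fell from 212.22 and 214.15 to 57.12 and 62.30 TPM (log2 difference -1.82, limma adjusted p = 2.5e-14), and the metalloprotease gene Adam8 from 689.01 and 680.82 to 335.32 and 349.11 TPM. The laminin genes Lama5 and Lamc1 rose, from 39.88 and 38.85 to 71.74 and 83.86 TPM and from 9.15 and 9.51 to 16.47 and 18.31 TPM.

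The number of CG dinucleotides in the promoter window, the sequence context that TET enzymes act on, was set beside the size of the difference; this comparison was chosen after the values were seen. Sizes here are absolute log2 fold changes after median-ratio scaling, and 19 tested genes of the set had a window. Of the 9 with at most 10 CG, 7 differed by at least 0.5: Itgax (5 CG), Itgb7 (5), Cd44, Itga2b and Itgam (6 each), Itga4 and Itga9 (10 each), or 6 of 8 without Itga9. Fermt3 (3 CG) and Parvg (8.5 on average over its windows) did not. Of the 10 with more than 10 CG only Itga1 (12) and Itga5 (13) differed by that much, while Itgav (24), Itgb1 (27), Vcl (30) and Ilk (33 on average) did not. Among all tested genes with a window the same size was met by 43.1% of 1579 genes with at most 10 CG and by 25.1% of 7326 genes with more. The split is thus seen across all tested genes as well, and no methylation was measured in these libraries. Tested genes of the set without a window could not enter it. After median-ratio scaling they stood at 1.64 (S1pr1), -1.29 (Itgb2), 1.06 (Itgb3), -0.85 (Pecam1), -0.78 (Selplg), -0.74 (Jam3), 0.72 (Itgal), 0.45 (Itgae) and 0.12 (Itga6). All but Itgae and Itga6 reached 0.5 in size, so the split does not describe the whole set.

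**Figure D4:**
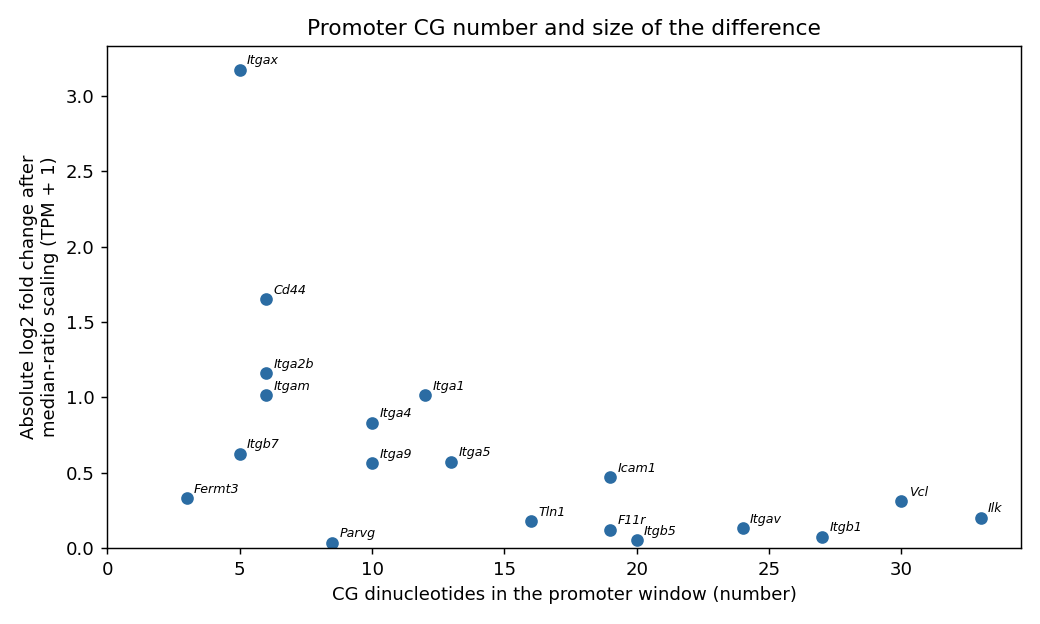
Number of CG dinucleotides in the 300-base promoter window (x axis; mean where a gene has several windows) and absolute log2 fold change of TPM + 1 after median-ratio scaling (y axis) for the 19 tested genes with a window, 1 point per gene. No gene beyond 13 CG reaches 0.5, and Itgax with 5 CG reaches 3.17.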

How the data were processed

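The TPM values come from a single table that the authors deposited, holding 24589 rows, 92 of them ERCC spike-ins, with a column for each library. Reads had been processed with STAR and RSEM on mm10, per the submitters' processing notes. For tool versions and the annotation release, the sources used here give nothing. Libraries were grouped by their titles. Spike-in rows were left out of the tests. log2(TPM + 1) was fitted with limma 3.58.1 in R 4.3.3 (intensity trend, robust estimation with statmod 1.5.0, no covariate) for genes that reached 1 TPM in 2 or more libraries, and the steps were tested on simulated data. Depth is unknown, so no counting interval was computed. Genes and lists were chosen with earlier results of these data known. Every gene of the set is accounted for, and of each pathway list up to 4 called genes are named, taken by absolute log2 fold change among genes averaging 5 TPM or more in the group where they are higher. Some genes that meet this rule are not reported here. Of the pathway genes 1 (Cd99) could not be matched to a row. In all, 11 marker lists were read. Positions and overlaps come from GENCODE M21 on the same build, promoter windows from RefSeq. As alternatives, the replicate number was fitted as a block, the pseudocount was set to 0.1 or 5 and the filter to none or 5 TPM. Others were median-ratio, quantile and spike-in scaling, leaving out spike-in rows, limma without trend or robust estimation, and leaving out each library. Figures were drawn with matplotlib 3.10.9.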

Additional observations from a re-analysis of the deposited data

How the results depend on the processing

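Of the 24 called genes of the set, 17 kept direction and call under all alternatives run: Cd44, Icam1, Itga1, Itga2b, Itga4, Itga5, Itga9, Itgal, Itgam, Itgax, Itgb2, Itgb3, Itgb7, Jam3, Pecam1, S1pr1 and Selplg (a filter of 5 TPM leaves out Itga1, Itga9 and Jam3). Without Itga9, Itgae and Jam3, which entered through 1 group, this was 15 of 21. The number of genes higher in the set went from 14 to 8 after median-ratio and 8 after spike-in scaling. For the pathway lists it went from 57 to 35 and 30, and the number lower from 33 to 50 after spike-in scaling. Over all genes 6225 were higher and 2238 lower as deposited, 3815 and 3936 after median-ratio scaling, 3915 and 3741 after quantile normalization, and 3394 and 4324 after spike-in scaling. These scalings move all genes of a library by construction. With a pseudocount of 0.1 the genes of at least 2-fold in the set became 6 higher and 5 lower. Leaving out 1 library gave 13 to 15 higher and 10 to 11 lower. The log2 fold change turned sign for Ilk (-0.20 median-ratio, -0.047 quantile, -0.25 spike-in, and from -0.0054 to 0.090 when 1 library was left out, lowest without Tet2 KO replicate 2), Tln1 (-0.18 median-ratio, -0.23 spike-in, and from -0.0040 to 0.14 with 1 library left out, lowest without Tet2 KO replicate 2), Itgb1 (-0.076 median-ratio, -0.13 spike-in), Parvg (-0.013 spike-in) and Tet2 (-0.22 median-ratio, -0.25 quantile, -0.27 spike-in, all 3 called lower, and from -0.0012 to 0.028 with 1 library left out, lowest without WT replicate 1). The cause was not tested, beyond what the scalings do by construction. Itgae was not called after quantile normalization (limma adjusted p = 0.062).

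With the replicate number as a block, 14 genes of the set were higher and 10 lower, as without it, and 54 and 32 of the pathway genes. Deviations of same-numbered libraries from their group means correlated at -0.0561, and the labels give the numbers no shared culture or day, so they were treated as names only. The promoter split at 7 or 15 CG, chosen after seeing the data, kept the larger median difference on the side with fewer CG.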
